A study of Mus musculus with 23 samples.

Results

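Chemokine ligand genes of the mouse testis were followed from 6.5 to 36.5 days post partum (dpp) in vivo and over 30 days of organotypic culture. The members were chosen by symbol: every entry of the count table whose symbol was Ccl, Cxcl, Cx3cl or Xcl followed by digits and at most 1 letter, leaving out 1 pseudogene. That gave 39 ligand genes of 27466 genes in the table. Testes came from CD-1 wild-type mice without any transgene or deletion. Fresh or frozen (controlled slow freezing, CSF) testes of 6.5 dpp were compared with whole testes of later ages (10.5, 22.5 or 36.5 dpp) and with 6.5 dpp testes cultured as explants for 4, 16 or 30 days (D4, D16 and D30). Cultured tissue at these times was as old as the 3 groups of later testes, in that order, which served as age-matched controls. The culture medium was α-MEM with KnockOut serum replacement and gentamicin, and retinol was given every 8 days. Each explant replicate pooled 12 explants whose necrotic centre had been cut away before RNA extraction, whereas the in vivo libraries came from whole testes, so culture and dissection cannot be told apart. RNA-seq counts of polyadenylated RNA were available for 23 libraries, of which 21 were used, with 28351546 to 69029328 counts each. In vivo groups held 4 libraries of 6.5 dpp (1 fresh, 3 CSF), 3 each of 10.5 and 22.5 dpp and 2 of 36.5 dpp, and explant groups held 3 libraries of D4, 2 of D16 and 4 of D30 (3 fresh, 1 CSF).

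A pair of libraries was left out before any comparison. The column of 6.5 dpp fresh replicate 3 was identical to that of fresh replicate 2 and was not counted again. The library labelled 6.5 dpp fresh replicate 1 stood apart from its group: over 23717 genes its rank correlation was 0.986 with D16 replicate 1 and 0.876 to 0.909 with the other 6.5 dpp libraries. With D16 replicate 2 it was 0.975 and with the 22.5 dpp libraries 0.971 to 0.981. These correlations do not separate cultured tissue from 22.5 dpp testis. The library's summed Leydig cell markers were at 127 CPM, beside 224 to 275 at D16 and 878 to 965 at 22.5 dpp. Endothelial markers were at 343 CPM, beside 279 to 369 and 60.7 to 88.5. Peritubular and stromal markers, at 1179 CPM, instead lay within the 22.5 dpp range of 755 to 1206, below 1632 to 1692 at D16. Which tissue the library held was not tested. The study's methods call the replicates biological, but the labels do not tie them to animals, so p-values measure the spread between these libraries.

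Chemokines are small secreted proteins that guide leukocytes, germ cells and other cells along concentration gradients, and they signal through receptors coupled to G proteins. Their names follow the spacing of conserved cysteines near the amino terminus. CXC ligands that bind CXCR2 draw neutrophils, CC ligands that bind CCR1 or CCR2 draw monocytes and macrophages, and homeostatic ligands such as CXCL12 retain or position cells in resting tissue. In the testis, macrophages are the most abundant leukocytes, and CXCL12 made by Sertoli cells is known to act on spermatogonial stem cells through CXCR4.

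Most ligand genes were low in these libraries. Of the 39 members, 19 reached a mean of 1 CPM (a gene's counts in a library scaled to 1000000 counts) in at least 1 group and 20 did not. No count was recorded for Ccl19, Ccl21a, Ccl21b, Ccl21c, Ccl21d and Ccl27b, the ligands of CCR7 and a copy of the CCR10 ligand Ccl27a. A count of 0 allows up to 3 counts, which is 0.0435 CPM in the deepest library and 0.106 CPM in the shallowest, and this limit covers counting error only. Ccl21a, Ccl21b, Ccl21c, Ccl21d and Ccl27b have near-identical copies whose reads may have been discarded as ambiguous, so their 0 is uncertain. Ccl20, Cxcl15 and Cxcl17 never passed 3 counts in a library. The other 11 low members were Xcl1, Ccl11, Ccl1, Ccl5, Ccl3, Cxcl5, Cxcl3, Cxcl2, Cxcl9, Cxcl13 and Ccl26, all under 1.5 CPM in every library. A filter on low counts left 27 members for the tests below, and 12 were not tested.

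Per kilobase of exon (RPKM), the ligand with the highest level changed with age and culture. Cxcl12 was highest at 6.5 dpp, with a mean level of 22.5 RPKM and a range of 17.6 to 29.2 (n = 4), and at 10.5 dpp, with 12.1 RPKM and a range of 11.2 to 13.2 (n = 3). Cx3cl1 came second at both ages, at 8.44 and 6.92 RPKM, and its range did not reach that of Cxcl12. Ccl27a led at 22.5 dpp with 5.32 RPKM (3.30 to 6.45), but its range overlapped that of Cxcl12 at 4.28 RPKM (3.32 to 5.69). At 36.5 dpp Ccl27a again had the highest mean level, 22.2 RPKM, with its 2 libraries at 33.6 and 10.8. A different order was measured in explants. Cxcl14 led at D4 with 11.9 RPKM (9.98 to 13.8), above Cxcl16 at 7.01 (5.83 to 7.74), while Cxcl16 and Cx3cl1 (5.63 to 6.73) overlapped. Cxcl16 and Ccl27a had the highest mean levels at D16, 6.91 and 5.98 RPKM, and the 2 libraries of Ccl27a lay on either side of those of Cxcl16. The highest mean levels at D30 belonged to Ccl8, at 14.3 RPKM, and Ccl12, at 11.9 RPKM, and their ranges of 7.47 to 20.8 and 6.24 to 20.3 overlapped.

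**Figure D1:**
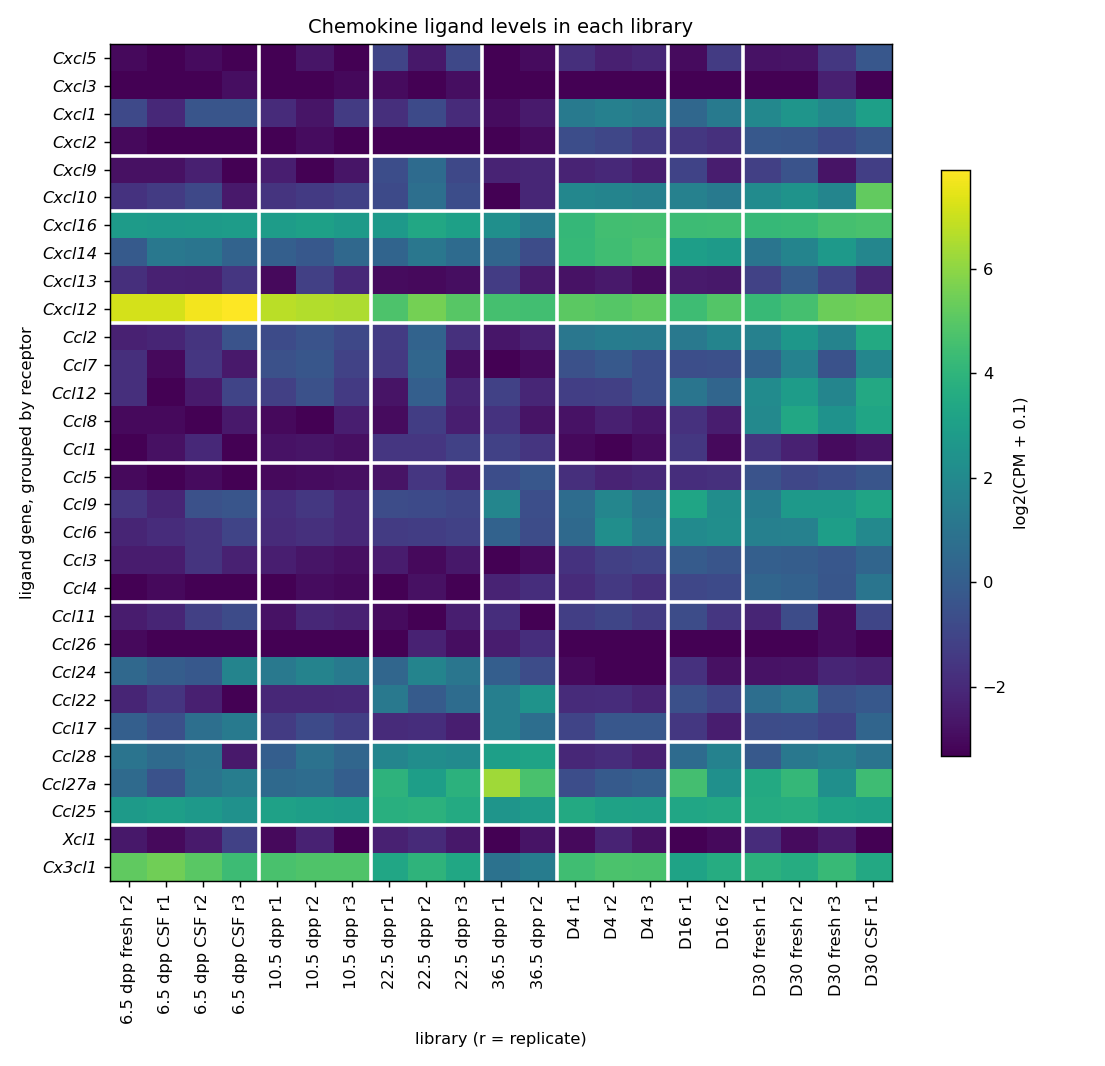
Level of the 30 ligand genes that passed 3 counts in at least 1 library (rows) in each library (columns, by age and culture day), as log2(CPM + 0.1) by colour. Cxcl12 and Cx3cl1 are high in the 6.5 and 10.5 dpp columns, Ccl27a is high at 36.5 dpp, and Ccl8, Ccl12, Ccl3, Ccl4, Cxcl1 and Cxcl2 are brighter in the D30 columns than in the 36.5 dpp columns.

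Culture was compared with the age-matched testis in a single fit across all genes (edgeR's quasi-likelihood test, with p-values adjusted over the whole table by Benjamini-Hochberg and a call at an adjusted p under 0.05). At D4, 11 of 27 ligand genes were higher than at 10.5 dpp and 3 were lower, or 51.9% of those tested, while 8.1% of all genes tested were called. The median log2 fold change was 1.19 over the tested ligand genes and -0.01 over all genes. D16 explants exceeded 22.5 dpp testis in 9 ligand genes and were lower in 2, or 40.7%, beside 25.8% of all genes, with medians of 0.34 and -0.08. D30 explants exceeded 36.5 dpp testis in 13 and were lower in 6, or 70.4%, beside 67.4% of all genes, with medians of 1.55 and -0.03. The share at D30 was near that of all genes. In bulk tissue such as this, fewer cells of a type and less RNA per cell cannot be told apart. By direction, 4.92% of all genes were higher and 3.18% lower at D4, 14.0% and 11.8% at D16, and 32.4% and 35.0% at D30.

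The split of calls depended in part on the scaling. With library size in place of TMM factors, 10 ligand genes were higher and 1 lower at D16, and 16 were higher and 5 lower at D30, while the median of all genes at D30 moved to 0.60. Among all genes, calls at D30 that were higher made up 48.0% with TMM and 65.8% with library size, those at D16 54.3% and 68.0% (43.9% with RLE size factors), and those at D4 60.7% and 50.1%. No called ligand gene changed direction under any scaling. Keeping the library labelled 6.5 dpp fresh replicate 1 in the fit ended the calls of Ccl2, Ccl9, Ccl3, Ccl4, Cxcl10 and Cxcl12 at D4, of Ccl2 and Ccl22 at D16, and of Ccl1, Ccl6 and Ccl4 at D30, all with the direction kept. Where 1 of the groups held at most 3 counts in all, ratios of pooled counts are given below in place of fitted values. For culture against the age-matched testis, those calls were kept without any 1 library. At the study's stricter threshold, a change of 2 or more on the log2 scale in either direction and an adjusted p no higher than 0.001, 4 ligand genes were higher and 1 lower at D4 (1.07% of all genes called), 3 were higher and none lower at D16 (1.42%), and 8 were higher and 3 lower at D30 (21.3%).

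**Figure D2:**
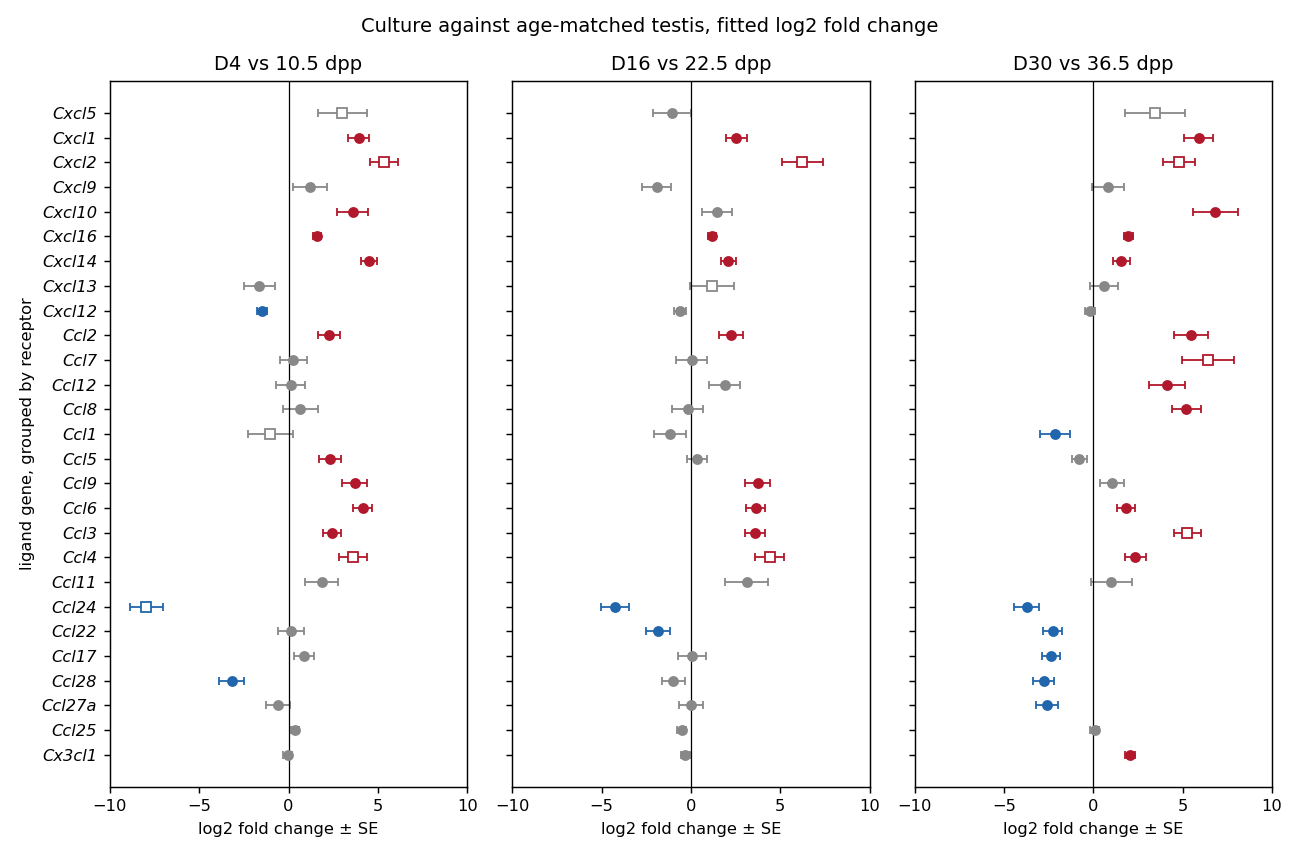
Log2 fold change of culture against the age-matched testis (horizontal axis) for the 27 tested ligand genes (vertical axis), with 1 panel each for D4, D16 and D30; bars are standard errors. Red points were called higher, blue points lower and grey points not called, and open squares mark genes for which one of the groups held at most 3 counts in all. Cxcl1, Cxcl2, Ccl3, Ccl4 and Ccl6 lie right of 0 at all 3 stages, and Ccl24 lies left of 0 at all 3.

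Ligands of CXCR2, the neutrophil receptor, lay together on chromosome 5, and 2 of the 3 tested rose in culture. Cxcl1 and Cxcl2 were called higher at D4, D16 and D30, as were 4.92%, 14.0% and 32.4% of all genes. Cxcl5 was tested and not called at any of these stages, and Cxcl3 and Cxcl15 were too low to test. Because Cxcl1 and Cxcl2 moved together, the stretch of each promoter that holds matches to the kB-like motif (GGG and TTCC with any 3 bases, NNN, between them) is shown, with that of the neighbouring Cxcl3 and of Cxcl10, a ligand of CXCR3 that also holds the interferon-response-like (ISRE-like) motif (GAAA and GAAA with any 2 bases, NN, between them). The sequences are RefSeq promoters on GRCm38.p6, written 5′ to 3′ on the strand of the gene, and capitals mark the letters of a match on either strand. Cxcl1 (chr5:90891126-90891214, plus strand) has matches starting 89, 71 and 70 bases before the start site. Cxcl2 (chr5:90903772-90903860, plus strand) has them at 97, 96 and 78 bases, and Cxcl3 (chr5:90785998-90786090, plus strand) at 73, 72 and 50 bases. In Cxcl10 (chr5:92348954-92349132, minus strand) the ISRE-like match starts 213 bases before the start site, and kB-like matches start at 159 and 104 bases.
Cxcl1: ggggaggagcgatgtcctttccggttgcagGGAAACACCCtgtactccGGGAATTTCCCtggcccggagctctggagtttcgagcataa
Cxcl2: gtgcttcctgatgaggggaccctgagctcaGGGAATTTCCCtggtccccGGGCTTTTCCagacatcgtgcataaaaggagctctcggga
Cxcl3: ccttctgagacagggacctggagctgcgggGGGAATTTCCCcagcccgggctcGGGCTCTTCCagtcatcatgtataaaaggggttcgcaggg
Cxcl10: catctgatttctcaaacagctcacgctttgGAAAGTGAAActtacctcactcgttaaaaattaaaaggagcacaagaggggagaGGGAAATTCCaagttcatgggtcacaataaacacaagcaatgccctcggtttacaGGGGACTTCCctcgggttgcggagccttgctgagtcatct

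The run GGGAATTTCCC stands in Cxcl1, Cxcl2 and Cxcl3 alike and counts as overlapping matches on both strands. Promoters, each from 250 bases before to 50 after a start site, were given for 28 of the 39 ligand genes. Of their 34 promoters, 7 held a kB-like match (20.6%), beside 5.56% of all 32851 promoters, and those genes were Ccl1, Ccl20, Ccl9, Cxcl1, Cxcl10, Cxcl2 and Cxcl3. An ISRE-like match was in 3 (8.82%), beside 3.44% of all promoters, in Ccl19, Cxcl10 and Cxcl14. A match describes letters in this window and is not a measured binding site.

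Cxcl1 (chr5:90891245-90893121) stood at 0.157, 0.0556 and 0.291 CPM in the 10.5 dpp libraries, at 0.185, 0.483 and 0.158 at 22.5 dpp, and at 0.0297 and 0.0772 at 36.5 dpp. Its explant values were 2.39, 2.83 and 2.46 CPM at D4, 1.26 and 2.36 at D16, and 3.67, 5.62 and 3.68 in the fresh and 8.01 in the CSF library of D30. Every explant library lay above every in vivo library, those of 6.5 dpp included (0.146 to 0.681 CPM). Its log2 fold change was 3.93 ± 0.58 (SE) at D4, with an adjusted p of 0.000234, 2.53 ± 0.59 (0.00631) at D16 and 5.89 ± 0.82 (1.02e-05) at D30. Single libraries moved its size: it was 4.58 at D4 without 10.5 dpp replicate 3, 3.15 at D16 without 22.5 dpp replicate 2, and 6.74 at D30 without 36.5 dpp replicate 2. At D16 the call was lost without D16 replicate 2, with 2.04. Cxcl2 was at 0.0278 CPM or less in vivo, at most 1 count in a library, and at 0.197 to 0.749 CPM in explants. Its level at D4 was 52.9 times that at 10.5 dpp, with an exact 95% counting interval of 9.13 to 2120 and an adjusted p of 0.000334. It was at least 8.52-fold higher at D16 than at 22.5 dpp, where no count was found (floor of 3 counts over the group; adjusted p 0.00181), and 47.9 times as high at D30 as at 36.5 dpp (8.42 to 1910; adjusted p 0.000238). Cxcl5 stayed at or under 0.728 CPM in every library and Cxcl3 at or under 4 counts.

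Ligands of CXCR3, which are induced by interferons and draw activated T and NK cells, were represented by Cxcl9 and Cxcl10. Cxcl10 (chr5:92346638-92348889) was at 0.225, 0.278 and 0.346 CPM at 10.5 dpp and at 3.55, 3.29 and 2.88 at D4, and the groups did not overlap. It was at 0.475, 1.62 and 0.537 CPM at 22.5 dpp and at 2.97 and 2.27 at D16. None was counted in 1 library of 36.5 dpp and 0.129 CPM in the other, while the fresh D30 libraries held 4.10, 5.35 and 3.32 CPM and the CSF library 37.3. That last value was far above the rest. The log2 fold change was 3.58 ± 0.85 at D4 (adjusted p 0.0123) and 6.83 ± 1.25 at D30 (adjusted p 0.000141), and the comparison at D16 was not called (adjusted p 0.203). The D4 call was lost without 10.5 dpp replicate 1 (3.44), replicate 2 (3.58) or replicate 3 (3.76). At D30 the value was 5.31 without the CSF library, 5.90 without 36.5 dpp replicate 1 and 12.06 without 36.5 dpp replicate 2, a fit against a library with no count that is no bound. Exons of Cxcl10 overlap those of Art3 on the opposite strand. The study's libraries were stranded, but the strand setting of the counting is not given in the sources used here. How reads in the shared stretch were counted is therefore not known. Cxcl9 was not called in any culture comparison (adjusted p 0.0888 at D16) and stood at 1.43 CPM or less.

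Genes of the interferon response were read beside these ligands in each library. The summed level of 10 such genes was 300.0 CPM in 22.5 dpp replicate 2 and 56.3 and 59.0 CPM in the other 22.5 dpp libraries. It was 277.1 CPM in the D30 CSF library and 129.5, 131.5 and 173.7 in the fresh ones. Each of these higher sums came from the library with the highest Cxcl10 of its group. The order did not hold within every group. Among the fresh D30 libraries the one with a sum of 173.7 CPM had the lowest Cxcl10, and at D16 sums of 132.3 and 154.7 CPM stood beside Cxcl10 at 2.97 and 2.27. Among the 10 genes, 1 was called higher at D4, 1 at D16 and 10 at D30, none was lower, and the medians were 0.64, -0.93 and 2.7. Of all genes tested, 4.92%, 14.0% and 32.4% were called higher at these stages. Irf1, an interferon-induced transcription factor, had a log2 fold change of 1.35 ± 0.24 at D16 (adjusted p 0.000938) and 2.92 ± 0.28 at D30 (adjusted p 2.3e-07). The part of the interferon response in the level of Cxcl10 was not tested.

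**Figure D3:**
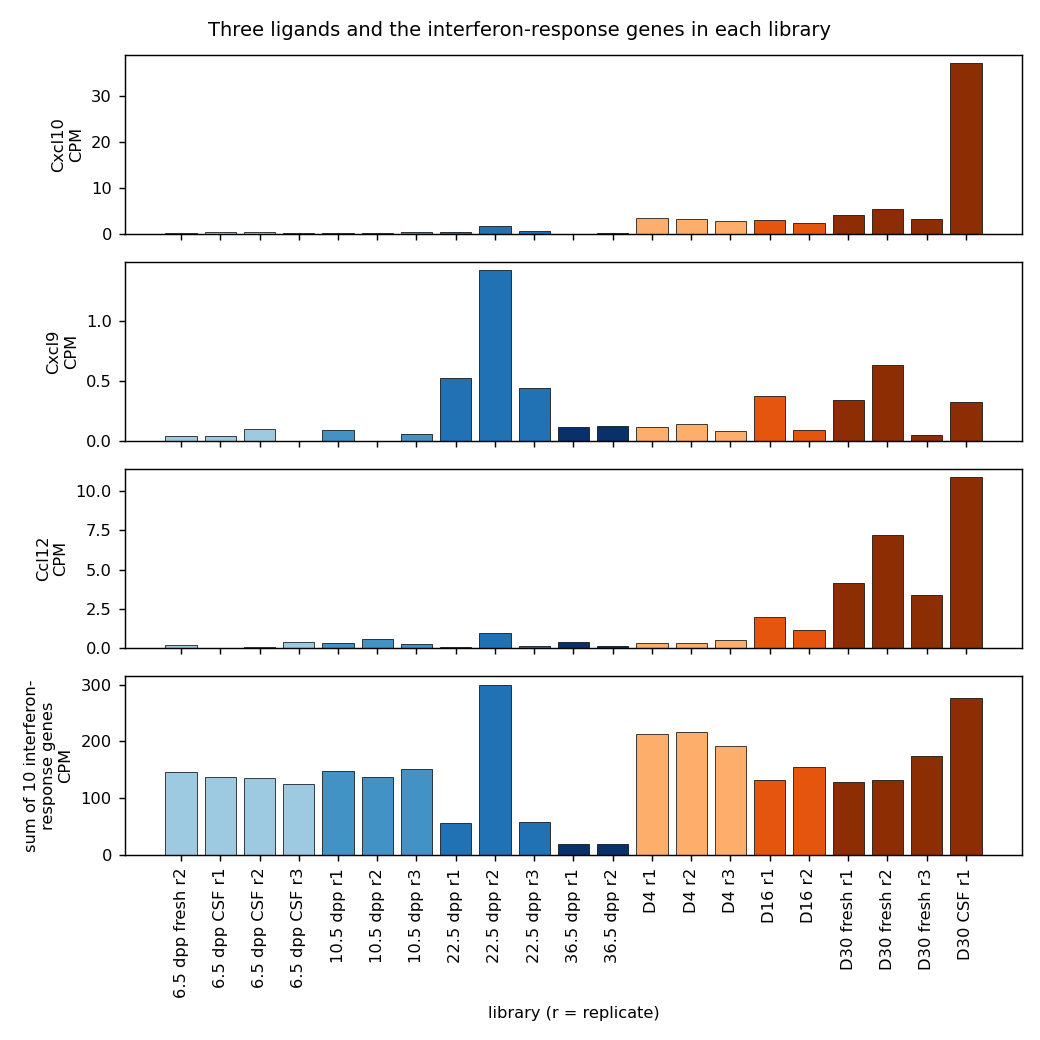
Level in CPM (vertical axes) of Cxcl10, Cxcl9, Ccl12 and the sum of 10 interferon-response genes in each library (bars, by age and culture day). The D30 CSF library holds the tallest Cxcl10 bar, 37.3 CPM, and 22.5 dpp replicate 2 holds the tallest bar of the interferon sum, 300.0 CPM.

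The remaining CXC ligands, most of them homeostatic, fell and rose on separate courses. Cxcl12 (chr6:117168535-117181368), the ligand of CXCR4 and of the scavenging receptor ACKR3, stood at 144, 144, 207 and 239 CPM in the 6.5 dpp libraries and at 108, 96.6 and 91.3 CPM at 10.5 dpp. It was at 27.1, 46.5 and 31.4 CPM at 22.5 dpp and at 24.3 and 22.5 at 36.5 dpp. In vivo the groups of 6.5, 10.5 and 22.5 dpp did not overlap, and each older group lay lower. The D4 explants held 34.1, 30.5 and 34.7 CPM, the D16 explants 21.0 and 29.7, and the D30 explants 18.7, 23.8, 41.0 and 45.8, the last in the CSF library. Cultured tissue at D4 was already in the range of 22.5 dpp testis. Against 10.5 dpp the log2 fold change at D4 was -1.49 ± 0.29 (adjusted p 0.00271), and D16 and D30 were not called (adjusted p 0.166 at D16). The fall from 10.5 to 22.5 dpp in vivo was -1.22 ± 0.29 (adjusted p 0.00133).

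Cxcl14 (chr13:56288643-56296811), a ligand made by epithelia and fibroblasts that attracts monocytes, had the largest fitted fold change at D4 among ligands with more than 3 counts in both groups. Its values were 0.965, 0.751 and 1.29 CPM at 10.5 dpp and 18.2, 21.7 and 25.3 at D4. They were 1.14, 2.08 and 1.42 CPM at 22.5 dpp and 7.67 and 6.91 at D16, and 1.16 and 0.514 at 36.5 dpp with 1.98, 3.22, 6.70 and 3.47 (CSF) at D30. Explants lay above their age-matched testes at each stage without overlap, and the gap narrowed from D4 to D30. It rose in log2 terms by 4.51 ± 0.45 (adjusted p 3.48e-06), 2.09 ± 0.44 (adjusted p 0.00308) and 1.55 ± 0.47 (adjusted p 0.00722). At D30 the call was lost without 36.5 dpp replicate 2 (1.07), and the value was 2.21 without replicate 1. From D4 to D16 the culture effect changed by -2.42 ± 0.61 (adjusted p 0.0208), a call that was lost without D16 replicate 2 (-2.32), and from D4 to D30 by -2.96 ± 0.60 (adjusted p 0.000751).

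Cxcl16 (chr11:70454389-70459984), a membrane-bound ligand of CXCR6, had 7.27, 8.15 and 6.73 CPM at 10.5 dpp and 17.6, 22.5 and 23.4 at D4. It had 6.63, 10.4 and 8.35 CPM at 22.5 dpp and 20.4 and 21.3 at D16. At 36.5 dpp it had 4.69 and 2.44 CPM, and at D30 18, 18.5, 24.4 and 25.4 (CSF). All 9 explant libraries lay above all 12 in vivo libraries. Its log2 fold change was 1.60 ± 0.22 at D4 (adjusted p 9.6e-05), 1.16 ± 0.23 at D16 (adjusted p 0.00229) and 1.96 ± 0.25 at D30 (adjusted p 4.29e-06), and none of these calls was lost without 1 library. Cxcl16 shares exon sequence with Zmynd15 on the opposite strand, and how reads in that stretch were counted is not known. Cxcl13, the ligand of the B cell receptor CXCR5, stayed at or under 0.861 CPM and was not called in culture.

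Ligands of CCR8 and of CCR2, the receptor that brings monocytes into tissue, form a cluster on chromosome 11 with Ccl11. Of the 5 ligands of CCR2 and CCR8, 1 was called higher at D4, 1 at D16 and 4 at D30, where Ccl1 was lower. Beside them, 4.92%, 14.0% and 32.4% of all genes were called higher, and 35.0% were lower at D30. Ccl2 (chr11:82035577-82037452), the main monocyte attractant, was at 0.494, 0.640 and 0.436 CPM at 10.5 dpp and at 2.11, 2.54 and 2.43 at D4. It was at 0.290, 1.07 and 0.190 CPM at 22.5 dpp and at 2.24 and 3.21 at D16. Only 0.0594 and 0.103 CPM (2 and 4 counts) were found at 36.5 dpp, against 2.92, 6.13, 3.15 and 11.1 (CSF) at D30. Explants were higher than testes of the same age in every library. Its log2 fold change was 2.26 ± 0.63 at D4 (adjusted p 0.0312), 2.24 ± 0.67 at D16 (adjusted p 0.023) and 5.47 ± 0.93 at D30 (adjusted p 7.28e-05). The D4 call was lost without any 1 of the 6 libraries compared, with values of 2.14 to 2.43. That at D16 was lost without 22.5 dpp replicate 1 (1.99), 22.5 dpp replicate 3 (1.89) or D16 replicate 2 (1.98), and the value was 3.25 without 22.5 dpp replicate 2.

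Ccl7, Ccl12 and Ccl8 were called higher than in the age-matched testis at D30 and not at D4 or D16. Ccl7 (chr11:82045712-82047525) was at 0.584, 0.695 and 0.364 CPM at 10.5 dpp and 0.580, 0.767 and 0.522 at D4, and at 0.264, 1.18 and 0.0316 at 22.5 dpp and 0.553 and 0.568 at D16. It had no count in 1 library of 36.5 dpp and 1 count in the other, while D30 libraries held 1.06, 3.04, 0.605 and 3.47 CPM (CSF). That is a level 147 times as high (26.3 to 5840; adjusted p 0.000875). The single count at 36.5 dpp sets this ratio, and in vivo the level was 41.0 times as high at 22.5 as at 36.5 dpp (7.1 to 1640; adjusted p 0.026). That in vivo call was lost without 22.5 dpp replicate 2 or either 36.5 dpp library, and in a fit of only the groups compared. From D16 to D30 neither Ccl7 (adjusted p 0.379) nor Ccl12 (adjusted p 0.309) was called. Ccl12 (chr11:82101845-82103399), a mouse ligand of CCR2, had 0.356 and 0.129 CPM at 36.5 dpp and 4.18, 7.20, 3.35 and 10.9 (CSF) at D30. Its log2 fold change was 4.10 ± 1.01 (adjusted p 0.00176), and 4.95 without 36.5 dpp replicate 1. Earlier stages of Ccl12 were at 0.325 to 0.536 CPM at D4 beside 0.273 to 0.584 at 10.5 dpp, and at 1.99 and 1.16 CPM at D16 beside 0.0528 to 0.965 at 22.5 dpp, and neither was called.

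Ccl8 (chr11:82115185-82116799) set D30 apart from all other groups. It was at 0.0464 to 0.0959 CPM at D4 (2 to 4 counts), at 0.201 and 0.0874 at D16 (8 and 4 counts), at 0.208 and 0.0514 at 36.5 dpp (7 and 2 counts), and at 0.307 or less in all other in vivo libraries. D30 explants held 3.82, 10.6, 5.21 and 9.59 CPM (CSF). The lowest D30 library thus exceeded every library of the other groups. Against 36.5 dpp the log2 fold change was 5.20 ± 0.83 (adjusted p 3.78e-05), and it was 6.43 without 36.5 dpp replicate 1 and 4.49 without replicate 2. From D16 to D30 it was 5.68 ± 0.82 (adjusted p 0.00362). Ccl8 was the single ligand gene called in that step, 3.7% of those tested, and it was called higher, as were 1.46% of all genes, with 0.332% lower. It did not pass the stricter threshold, which 0.00519% of all genes passed. The call was lost without D16 replicate 2 (5.16) and in a fit of only the D16 and D30 libraries, and the value was 6.39 without D16 replicate 1. Ccl1 was at or under 0.356 CPM throughout. Its log2 fold change at D30 was -2.15 ± 0.84 (adjusted p 0.0319), a call that was lost without 36.5 dpp replicate 1 (-1.85), 36.5 dpp replicate 2 (-2.43), D30 fresh replicate 3 (-1.82) or D30 CSF replicate 1 (-1.93), and also with library size scaling (-1.53). Without D30 fresh replicate 1 it was -2.90.

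The inflammatory ligands Ccl3, Ccl4, Ccl5, Ccl6 and Ccl9, made by and acting on macrophages and T cells, rose in culture from the first stage on. They lie side by side on chromosome 11. All 5 were called higher at D4, 4 at D16 and 3 at D30, and none was lower. The shares of all genes called higher were 4.92%, 14.0% and 32.4% at these stages. Ccl6 (chr11:83587886-83593087), a ligand of CCR1 in the mouse, had 0.157, 0.195 and 0.145 CPM at 10.5 dpp and 1.35, 4.63 and 2.42 at D4. It had 0.290, 0.307 and 0.348 CPM at 22.5 dpp and 4.10 and 4.61 at D16, and 1.04 and 0.514 at 36.5 dpp with 2.83, 2.99, 7.78 and 3.77 (CSF) at D30. The groups were apart at each stage, with the closest values at D30. The log2 fold change was 4.15 ± 0.53 (adjusted p 5.84e-05), 3.63 ± 0.53 (adjusted p 0.000169) and 1.83 ± 0.52 (adjusted p 0.00485), and the D30 call was lost without 36.5 dpp replicate 2 (1.40).

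Ccl9 (chr11:83572917-83578636), another CCR1 ligand, had 0.18, 0.25 and 0.145 CPM at 10.5 dpp and 1.49, 3.50 and 2.03 at D4. It had 0.502, 0.483 and 0.411 CPM at 22.5 dpp and 9.45 and 4.39 at D16. At 36.5 dpp the libraries differed, with 3.42 and 0.540 CPM, and D30 held 2.56, 6.69, 6.68 and 9.39 (CSF), so these groups overlapped. Ccl9 was called at D4 (3.69 ± 0.71; adjusted p 0.00268) and D16 (3.74 ± 0.71; adjusted p 0.00142) but not at D30 (adjusted p 0.167). Without D16 replicate 1 the value at D16 was 3.05.

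Ccl4 (chr11:83648624-83664683), which draws monocytes and T cells, was at 0.0439 CPM or less at 6.5, 10.5 and 22.5 dpp and at 0.119 and 0.180 CPM at 36.5 dpp. Explants held 0.163, 0.264 and 0.188 CPM at D4, 0.427 and 0.481 at D16, and 1.16, 1.01, 0.705 and 1.96 (CSF) at D30. Values were higher at each later culture stage, and explants did not overlap with the testes of their age at any stage. The level at D4 was 13.7 times that at 10.5 dpp (3.47 to 118; adjusted p 0.0062), and that at D16 26.2 times that at 22.5 dpp (6.79 to 224; adjusted p 0.000925). At D30 the log2 fold change was 2.35 ± 0.60 (adjusted p 0.00226). Ccl3, a ligand of CCR1, was at 0.0363 to 0.0898 CPM at 10.5 dpp and 0.209 to 0.391 at D4, at 0.0219 to 0.0792 at 22.5 dpp and 0.677 to 0.830 at D16, and at 0.0257 CPM or less at 36.5 dpp and 0.730 to 1.16 at D30. It rose by 2.42 ± 0.52 at D4 (adjusted p 0.00597), a call lost without 10.5 dpp replicate 3 (2.12), and by 3.61 ± 0.56 at D16 (adjusted p 0.000274). At D30 its level was 67.4 times that at 36.5 dpp (11.9 to 2680; adjusted p 1.75e-05). Ccl5, which draws T cells and monocytes, was at or under 0.720 CPM. It rose at D4 by 2.32 ± 0.59 (adjusted p 0.020), a call lost without any 1 of the 10.5 dpp libraries (2.18, 2.30 and 2.52 for replicates 1 to 3), without D4 replicate 1 (2.15) or D4 replicate 3 (2.36), and with DESeq2. At D30 its range of 0.431 to 0.678 CPM overlapped with 0.535 and 0.720 at 36.5 dpp (adjusted p 0.0988).

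**Figure D4:**
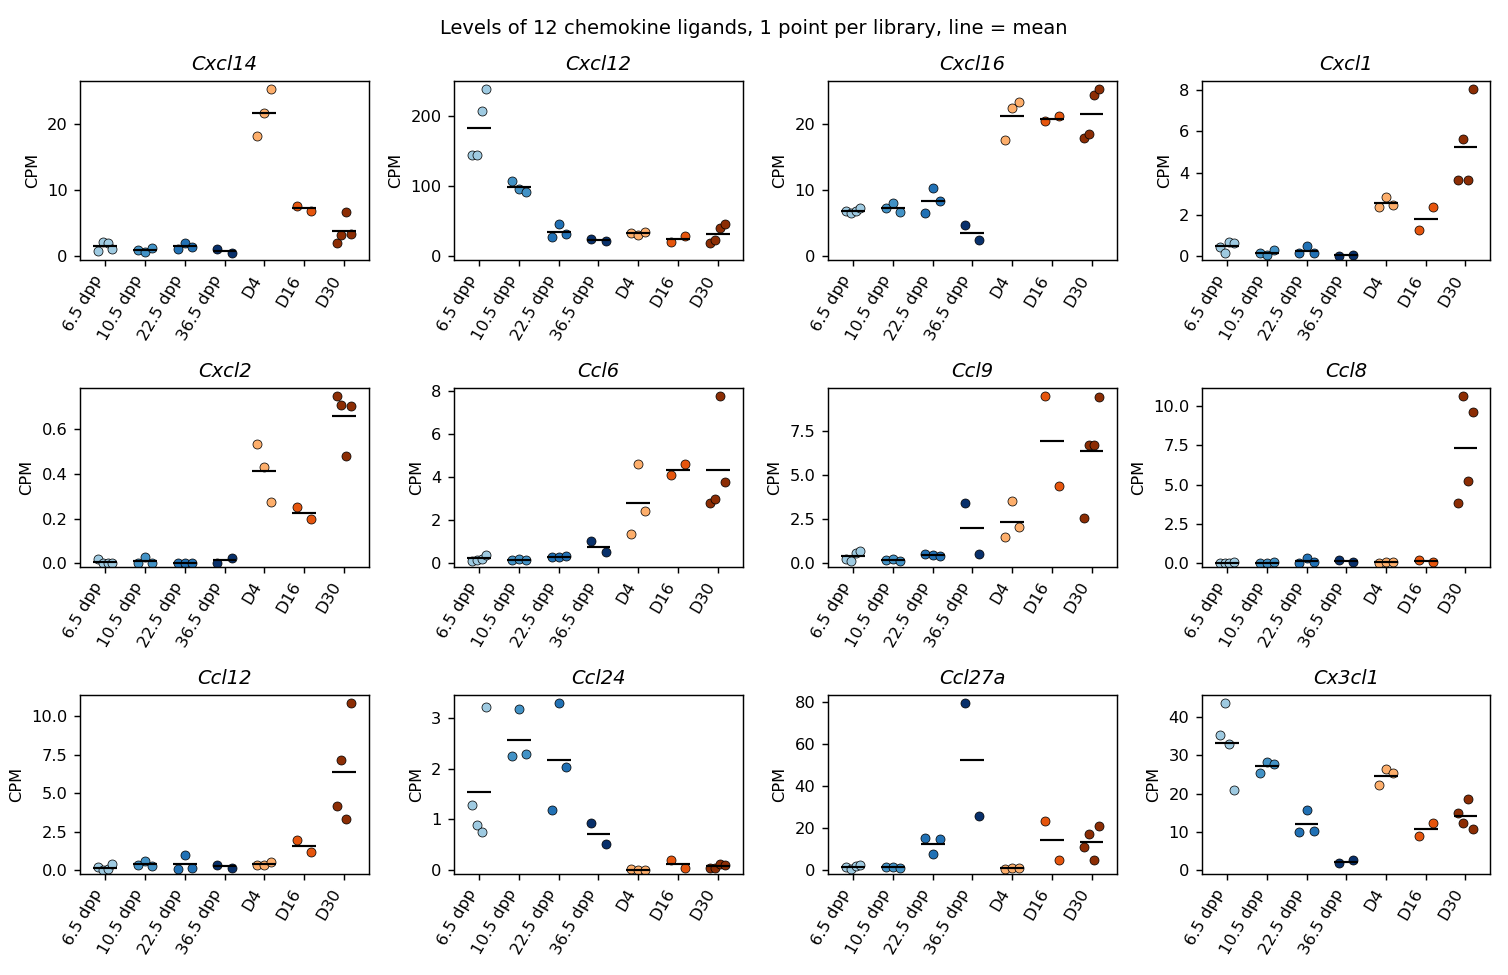
Level in CPM (vertical axes) of 12 ligand genes in each library (points) by age and culture day (horizontal axis), with a line at each group mean. Cxcl1, Cxcl16 and Ccl6 are higher in explants than in testes of the same age, Cxcl12 falls with age in vivo, and Ccl8 is near 0 in every group but D30.

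Ligands of CCR3 and CCR4, receptors of eosinophils, type 2 T cells and regulatory T cells, included no gene that rose in explants against the testis of their age. None of 4 tested was called higher in these comparisons, and 1 was lower at D4, 2 at D16 and 3 at D30. The shares of all genes called lower were 3.18%, 11.8% and 35.0% at these stages. Ccl24 (chr5:135569935-135573123), also called eotaxin-2 and made by macrophages, had 2.25, 3.17 and 2.29 CPM at 10.5 dpp and 0.0232, 0 and 0 CPM at D4, a single count in all. It had 1.19, 3.29 and 2.02 CPM at 22.5 dpp and 0.201 and 0.0437 at D16, and 0.921 and 0.514 at 36.5 dpp with 0.0483, 0.0507, 0.126 and 0.1 (CSF) at D30. No explant library reached the lowest in vivo library. The level at 10.5 dpp was 386 times that at D4 (68.8 to 15300; adjusted p 1.82e-05). The log2 fold change was -4.28 ± 0.79 at D16 (adjusted p 0.00117) and -3.73 ± 0.69 at D30 (adjusted p 0.000159), and at D16 it was -5.69 without D16 replicate 1 and -3.51 without D16 replicate 2.

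Ccl17 and Ccl22, both ligands of CCR4 and both on chromosome 8, had their highest group means at 36.5 dpp. Ccl17 (chr8:94809380-94812038) was at 2.76 and 1.57 CPM at 36.5 dpp and at 0.507, 0.532, 0.378 and 1.16 (CSF) at D30. It was at 0.158, 0.175 and 0.0948 CPM at 22.5 dpp beside 0.251 and 0.0874 at D16, and at 0.292, 0.473 and 0.327 at 10.5 dpp beside 0.395, 0.719 and 0.739 at D4. Only the D30 comparison was called among the 3, with -2.38 ± 0.52 (adjusted p 0.000629). Ccl22 (chr8:94745684-94751388) was at 0.135, 0.139 and 0.145 CPM at 10.5 dpp, at 2.22, 0.834 and 1.45 at 22.5 dpp and at 2.73 and 5.40 at 36.5 dpp. Explants held 0.163, 0.168 and 0.116 CPM at D4, 0.578 and 0.371 at D16, and 1.57, 2.23, 0.579 and 0.753 (CSF) at D30. From D16 on explants were below the testes of their age. The fall was -2.29 ± 0.54 at D30 (adjusted p 0.00125) and -1.84 ± 0.67 at D16 (adjusted p 0.0499). The latter was lost without 22.5 dpp replicate 1 (-1.39), 22.5 dpp replicate 3 (-1.85), D16 replicate 1 (-2.21) or D16 replicate 2 (-1.52), with library size scaling, without the filter on low counts, and in a fit of only the groups compared. Ccl11 (eotaxin) was at or under 0.507 CPM and not called, and Ccl26 at or under 7 counts and not tested.

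Mucosal and skin ligands were represented by Ccl27a and Ccl28, which bind CCR10, and Ccl25, which binds CCR9. Ccl27a (chr4:41769467-41774225) had 1.35, 1.47 and 0.928 CPM at 10.5 dpp, 15.3, 7.83 and 14.7 at 22.5 dpp, and 79.8 and 25.6 at 36.5 dpp. Explants held 0.534, 0.815 and 0.942 CPM at D4, 23.6 and 4.87 at D16, and 11.0, 17.4, 4.66 and 21.1 (CSF) at D30. Levels went up from 10.5 to 36.5 dpp in vivo and from D4 to D16 in culture, while D16 and D30 overlapped. Libraries of 1 group differed widely at 36.5 dpp and D16. At D30 it was lower than at 36.5 dpp, with -2.58 ± 0.62 (adjusted p 0.0014), a call lost without 36.5 dpp replicate 1 (-1.58), and -3.19 without replicate 2. Exons of Ccl27a overlap those of Il11ra1 on the opposite strand, and how reads in the shared stretch were counted is not known.

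Ccl28 (chr13:119623819-119654359) had 0.920, 1.78 and 1.22 CPM at 10.5 dpp and 0.139, 0.168 and 0.101 at D4. It had 3.38, 4.45 and 3.98 CPM at 22.5 dpp and 1.43 and 3.02 at D16, and 7.90 and 8.90 at 36.5 dpp with 0.773, 2.15, 2.80 and 1.88 (CSF) at D30. All explants lay below the testes of their age. The log2 fold change was -3.17 ± 0.69 at D4 (adjusted p 0.00696) and -2.79 ± 0.57 at D30 (adjusted p 0.000365), and D16 was not called. Ccl25 (chr8:4325205-4360020), known for drawing T cells to gut and thymus, was steady by comparison, at 4.97 to 14.9 CPM over all libraries. It had 8.49, 7.68 and 7.35 CPM at 10.5 dpp and 11.3, 8.85 and 8.40 at D4, 13.5, 14.9 and 11.6 at 22.5 dpp and 9.88 and 10.8 at D16, and 5.76 and 7.10 at 36.5 dpp and 11.8, 12.7, 8.99 and 8.11 (CSF) at D30. None of these stages was called. Its exons overlap those of Elavl1 on the opposite strand.

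Cx3cl1 (chr8:94772180-94782427), or fractalkine, is a membrane-bound ligand whose receptor CX3CR1 marks testicular macrophages. It stood at 35.2, 43.7, 32.9 and 20.8 CPM at 6.5 dpp, 25.5, 28.4 and 27.7 at 10.5 dpp, 9.88, 15.7 and 10.3 at 22.5 dpp, and 1.78 and 2.52 at 36.5 dpp. Explants held 22.1, 26.4 and 25.3 CPM at D4, 8.95 and 12.3 at D16, and 14.9, 12.4, 18.7 and 10.7 (CSF) at D30. Explants overlapped with the testes of their age at D4 and D16 and lay above them at D30. There the log2 fold change was 2.07 ± 0.28 (adjusted p 8.62e-06). The culture effect at D30 exceeded that at D4 by 2.13 ± 0.36 (adjusted p 0.000187), and no omission of 1 library ended that call. Xcl1, the ligand of XCR1, stayed at or under 10 counts and was not tested in these comparisons.

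Receptors of these ligands were read beside them. Of 18 chemokine receptors, 15 were tested, with 1 called higher and 3 lower at D4, 2 higher and 1 lower at D16, and 5 higher and 3 lower at D30. Among all genes tested, 8.1%, 25.8% and 67.4% were called at these stages. Cx3cr1 fell from 11.7, 12.5 and 13.1 CPM at 10.5 dpp to 0.882, 0.671 and 0.840 at D4, a log2 fold change of -3.87 ± 0.23 (adjusted p 1.41e-08). It stood at 12.2 and 13.9 CPM at D16, where it was not called, and at 11.7 to 17.8 CPM at D30 against 5.02 and 4.45 at 36.5 dpp (0.97 ± 0.22; adjusted p 0.000918). Its ligand Cx3cl1 was not called at D4. Ccr2 fell at D4 by 2.32 ± 0.54 (adjusted p 0.0104) and was not called later, and Ccr1 was not called at any stage.

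Cxcr4, the signalling receptor of CXCL12, was at 12.0, 12.2 and 9.86 CPM at 22.5 dpp and at 56.6 and 25.2 at D16, a log2 fold change of 1.70 ± 0.43 (adjusted p 0.0099). At D30 it was at 28.6 to 59.5 CPM beside 8.14 and 4.32 at 36.5 dpp (2.25 ± 0.46; adjusted p 0.000378). Ackr3, the scavenging receptor of the same ligand, rose by 0.96 ± 0.25 at D16 (adjusted p 0.0127) and 1.95 ± 0.27 at D30 (adjusted p 1.01e-05). Both receptors were thus higher than in testis at stages where Cxcl12 itself was not called. Cxcr2, the receptor of CXCL1 and CXCL2, and Cxcr1 were at 0.111 CPM or less in every library. None of 4 tested neutrophil markers was called at D4 or D16, with 1 lower at D30, as were 35.0% of all genes. The summed level of 7 neutrophil markers was 0.290 to 3.00 CPM over all libraries, and 2 of them had no count at D30.

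Macrophage markers moved with culture too. The sum of 12 markers was 167 to 226 CPM at 10.5 dpp and 72.1 to 101 at D4, 304 to 413 at 22.5 dpp and 465 to 538 at D16, and 560 to 590 at 36.5 dpp and 531 to 971 at D30, and no marker was at 0 in a group. At D4, 1 was called higher and 5 lower (median -0.92), at D16 3 higher and 1 lower (median -0.20), and at D30 8 higher and 1 lower (median 1.11). The shares of all genes called at these stages were 8.1%, 25.8% and 67.4%. Csf1r, the receptor for the macrophage growth factor, had a log2 fold change of -2.63 ± 0.27 at D4 (adjusted p 5.37e-06) and Adgre1 of -2.49 ± 0.26 (adjusted p 6.22e-06). Cd14, the co-receptor for bacterial lipopolysaccharide, went the other way, with 1.79 ± 0.36 at D4 (adjusted p 0.0033), 2.17 ± 0.38 at D16 (adjusted p 0.000705) and 3.34 ± 0.43 at D30 (adjusted p 4.53e-06). Aif1 made up most of the sum at 36.5 dpp, with 399 and 433 CPM, and was the marker that fell at D30 (-3.98 ± 0.49; adjusted p 3.24e-06). The ligands Ccl3, Ccl4, Ccl5, Ccl6 and Ccl9 were higher at D4 in libraries whose macrophage marker sum was lower. The part of macrophage number in any ligand's level was not tested.

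**Figure D5:**
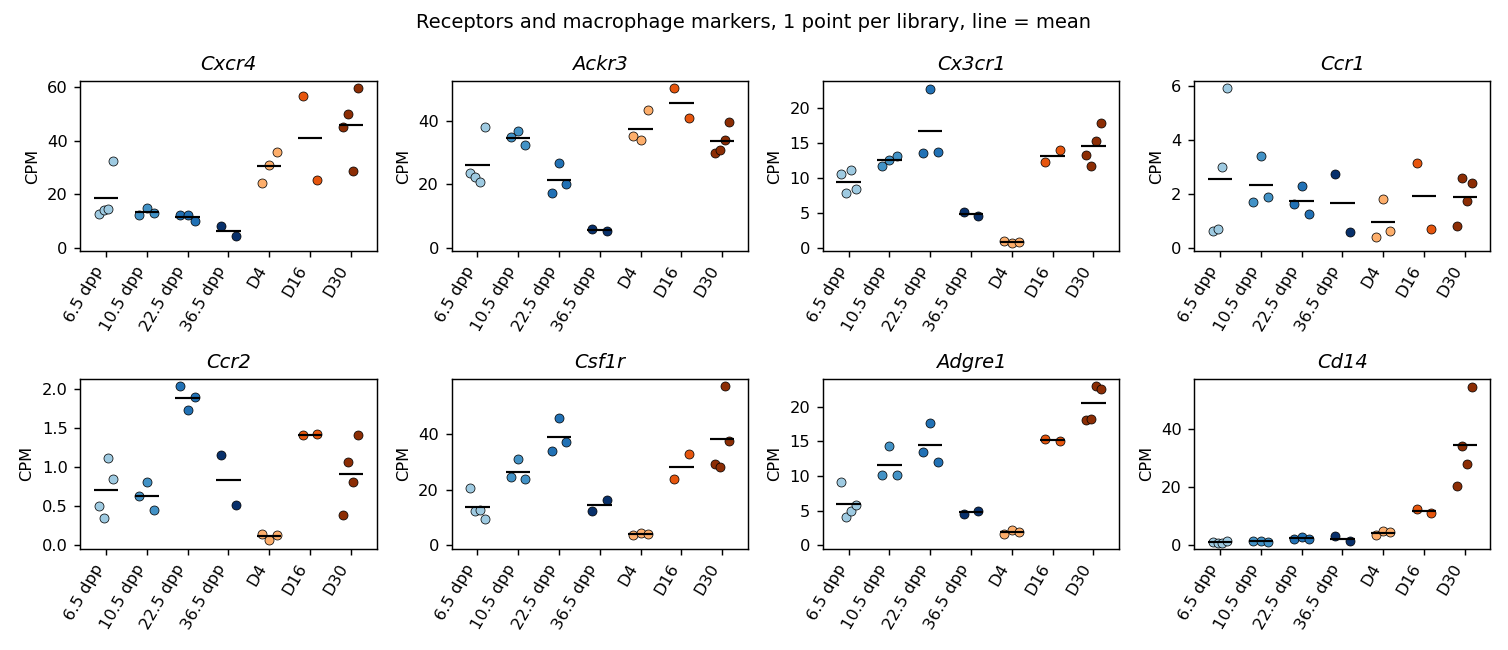
Level in CPM (vertical axes) of the receptors Cxcr4, Ackr3, Cx3cr1, Ccr1 and Ccr2 and the macrophage markers Csf1r, Adgre1 and Cd14 in each library (points) by age and culture day (horizontal axis), with a line at each group mean. Cx3cr1 and Csf1r dip at D4, to at most 0.882 and 4.46 CPM, and Cd14 is highest at D30.

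Genes that respond to NF-kB and cytokines that induce chemokines were counted from lists. Of 10 NF-kB response genes, 7 were called higher at D4, 6 at D16 and 8 at D30, none was lower, and the medians were 0.83, 0.90 and 2.20. Beside them, 4.92%, 14.0% and 32.4% of all genes tested were called higher. Ier3, an early-response gene, rose at all 3 stages, by 2.47 ± 0.25, 3.13 ± 0.27 and 3.24 ± 0.30 (adjusted p 3.66e-06, 1.05e-06 and 2.13e-07). Nfkb2, a subunit of NF-kB, rose by 0.71 ± 0.19, 1.09 ± 0.21 and 2.87 ± 0.24 (adjusted p 0.0259, 0.00163 and 6.55e-08). The cytokines were low, and 7 of 11 were tested. Il1a was called higher at D4 (1.88 ± 0.35; adjusted p 0.00211), 1 was called higher at D16, and 2 were higher and 1 lower at D30, where Il13 fell by 4.09 ± 0.74 (adjusted p 0.000128).

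Markers of other cells in the testis also differed between culture and testis. The share of all genes called rose over these stages too, with 8.1% at D4, 25.8% at D16 and 67.4% at D30. Of 8 endothelial markers, 3 were higher and 1 lower at D4, 6 higher and none lower at D16, and 6 higher and 2 lower at D30. Sertoli cell markers (7) were higher in 1, 5 and 6 cases, with 1 lower at D16, and peritubular and stromal markers (7) were higher in none, 2 and 7 cases, with 1 lower at D4. Leydig cell markers (6) were lower in 3, 5 and 6 cases and germ cell markers (8) in none, 1 and 5, and none of either list was higher. Of 4 tested T and NK cell markers, 1 was higher at each stage and 1, 2 and 1 lower, and of 5 lymphatic endothelial markers, 1 was higher at D4 and D16 and 2 were lower at D30. Red blood cell markers were lower in 2 of 3 tested at each stage. The part of these cells in the ligands' levels was not tested.

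The start of culture was compared with the tissue it came from. Against 6.5 dpp, 12 ligand genes were higher at D4 and 3 lower, or 55.6% of those tested, beside 20.9% of all genes (10.8% higher, 10.1% lower). The stricter threshold left 7 of them, beside 2.41% of all genes. The 6.5 dpp group held 3 CSF libraries and 1 fresh one, while all D4 libraries were fresh. With fresh libraries only, 10 ligand genes were called, and the calls of Ccl5 (adjusted p 0.112), Ccl9 (0.0784), Ccl3 (0.155), Cxcl1 (0.050) and Ccl25 (0.363) were lost with their direction kept. In that fit, which left 1 library at 6.5 dpp, Ccl2 was at 4.52, Cxcl14 at 4.79 and Ccl6 at 4.50 on the log2 scale. Ccl4 and Cxcl2 each held 1 count over the whole 6.5 dpp group. Their values of 6.07 and 4.16 are fitted ones, not bounds. Cxcl12 fell by 2.46 ± 0.29 on the log2 scale (adjusted p 8.2e-06), from 144 to 239 CPM to 30.5 to 34.7 CPM. Ccl2 rose by 3.22 ± 0.61 (adjusted p 0.00107), from 0.104, 0.125, 0.219 and 0.635 CPM. Ccl24 was 210 times as high at 6.5 dpp as at D4 (37.3 to 8340). The rise of Ccl2 was 4.04 without 6.5 dpp CSF replicate 3. Ccl28 was lower too, and Cxcl14 (3.87 ± 0.39), Ccl6 (3.70 ± 0.47), Cxcl10 (3.67 ± 0.77), Cxcl16, Cxcl1, Cxcl2, Ccl4, Ccl5, Ccl9, Ccl3 and Ccl25 were higher. The smallest of these rises were those of Ccl3 (1.38 ± 0.44), lost without any 1 of 4 libraries (6.5 dpp fresh replicate 2, 6.5 dpp CSF replicate 1, D4 replicate 2 or D4 replicate 3), and Ccl25 (0.59 ± 0.20), lost without any 1 of 5 (6.5 dpp fresh replicate 2, 6.5 dpp CSF replicate 2 or 3, D4 replicate 1 or 2). Between D4 and D16, 4 rose and 2 fell, or 22.2%, beside 23.9% of all genes (18.4% higher, 5.48% lower), with 2 at the stricter threshold beside 7.86%, and with library size scaling 3 rose and 3 fell. Ccl27a rose by 4.27 ± 0.74 (adjusted p 0.000271; 2.69 without D16 replicate 1 and 5.01 without D16 replicate 2) and Ccl28 by 4.08 ± 0.73 (adjusted p 0.000375; 3.48 without D16 replicate 2). Cx3cl1 fell by 1.16 ± 0.27 (adjusted p 0.0038), a call lost without D16 replicate 1 (-0.97).

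In vivo, the ligands were compared between successive ages, over which meiosis and then spermatid formation set in, and the share called was below or near that of all genes at each step. From 6.5 to 10.5 dpp no ligand gene was called, while 1.14% of all genes were. An unadjusted p under 0.05 was found for 4 ligand genes by edgeR and 4 by DESeq2, and DESeq2 called 2. From 10.5 to 22.5 dpp, 8 rose and 2 fell, or 37.0%, beside 61.5% of all genes (33.6% higher, 27.9% lower). The stricter threshold left 3, beside 18.4%. The largest rises with enough counts in both groups were those of Cxcl9 (4.16 ± 0.84; adjusted p 0.000365), Ccl22 (3.71 ± 0.65; adjusted p 9.88e-05) and Ccl27a (3.66 ± 0.69; adjusted p 0.000195). For Cxcl9 the value was 4.79 without 10.5 dpp replicate 1 and 3.54 without 22.5 dpp replicate 2, the library with the highest interferon sum. Ccl25 rose by 1.06 ± 0.21 (adjusted p 0.000358), and Cx3cl1 fell by 0.91 ± 0.24 (adjusted p 0.003).

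From 22.5 to 36.5 dpp, 9 rose and 4 fell, or 48.1%, beside 50.7% of all genes (23.3% higher, 27.5% lower), with 2 at the stricter threshold beside 9.9%. RLE size factors gave 9 and 2, and library size 7 and 10. Ccl17 rose by 4.38 ± 0.64 (adjusted p 4.05e-05) and Cx3cl1 fell by 1.94 ± 0.29 (adjusted p 4.83e-05), and both calls were kept without any 1 library. Ccl5 rose by 2.74 ± 0.49 (adjusted p 0.000221), and by 3.52 without 22.5 dpp replicate 2. Several calls rested on single libraries. The call of Ccl28 was lost without any 1 of the libraries compared. Those of Cxcl16, Ccl7, Cxcl10, Cxcl13 and Ccl22 were each lost without 22.5 dpp replicate 2, and also without at least 1 library of 36.5 dpp. Without 36.5 dpp replicate 1 the calls of Ccl27a (1.52, against 2.54 with it), Ccl9 (0.74, against 2.57) and Ccl6 (1.23, against 1.80) were lost, and without 36.5 dpp replicate 2 Ccl27a was at 3.13 and Ccl9 at 3.36.

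The culture effect itself differed between stages for some ligands. From D4 to D16, Cxcl14 was the only ligand gene whose effect was called different, 3.7% of those tested beside 9.61% of all genes (5.26% higher, 4.36% lower). From D4 to D30, the effect was higher for 8 and lower for 6, or 51.9%, beside 46.4% of all genes (25.8% higher, 20.7% lower), with 2 at the stricter threshold beside 9.52%, and 12 and 3 with library size scaling. It was higher at D30 for Ccl8 (4.54 ± 1.40), Ccl12 (3.97 ± 1.27) and Ccl2 (3.21 ± 1.10), with adjusted p of 0.0134, 0.0167 and 0.0239. These are ligands of CCR2 or CCR8, as is Ccl7, whose effect was also higher but rests on a single count at 36.5 dpp. The call of Ccl8 was lost without 10.5 dpp replicate 3 (2.99; 5.76 and 3.81 without 36.5 dpp replicates 1 and 2), that of Ccl12 without 36.5 dpp replicate 2 (3.38; 4.81 without replicate 1), and that of Ccl2 without either 36.5 dpp library (2.85 and 3.66). It was lower at D30 for Ccl5 (-3.11 ± 0.72; adjusted p 0.00223), which was called higher at D4 and not called at D30, and for Ccl17 (-3.24 ± 0.76; adjusted p 0.00226), which was not called at D4 and was called lower at D30. Both differences were kept without any 1 library. Ccl5 did not fall in explants between these stages, with 0.186 CPM or less at D4 and 0.431 to 0.678 at D30. In vivo it went from 0.0364 CPM or less at 10.5 dpp to 0.535 and 0.720 at 36.5 dpp.

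Freezing before culture or RNA extraction was tested over 6.5 dpp and D30 together. No ligand gene of 28 tested was called, and no gene of the table was called (0.0% of all genes). The lowest adjusted p of a ligand gene was 0.679. An unadjusted p under 0.05 was found for 3 ligand genes by edgeR and 3 by DESeq2, and for 1170 of all genes by edgeR, and DESeq2 called 10 genes of the table. With 1 fresh library left at 6.5 dpp and 1 CSF library at D30, these values do not show that freezing left the ligands unchanged.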

How the data were processed

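Gene expression in mouse testes and testicular explants was measured by RNA-seq of polyadenylated RNA with 50-base reads. Per the submitters' processing notes and the study's methods, the authors aligned reads with STAR 2.7.3a to GRCm38 and deposited raw counts per gene made with HTSeq 0.12.4. No normalization was applied to these deposited counts. The strand setting is not given in the sources used here. Identifiers matched a symbol for 27373 of 27466 genes, and the others held 0.02066% of counts.

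Groups were taken from the labels. Of 23 libraries, 2 were left out, 6.5 dpp fresh replicate 1, which stood apart from its group, and fresh replicate 3, identical to fresh replicate 2. CSF and fresh libraries of the same time were joined. Depth was 28351546 to 69029328 counts per library. CPM was computed on library totals, and RPKM on the union of exon lengths.

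edgeR 4.0.16 (R 4.3.3) was run with TMM factors, filterByExpr and the quasi-likelihood F test in 1 fit of 7 groups, with Benjamini-Hochberg adjustment over the 19255 genes tested and a call at an adjusted p under 0.05. Freezing was tested in a fit of 9 groups. Standard errors are the log2 fold change divided by the square root of F. Where 1 group held at most 3 counts in all, the ratio of pooled counts with an exact 95% interval was given in place of a fitted value; it covers counting error only. The fit was tested on simulated data. Alternatives were RLE size factors, library size alone, no filter, a filter of 1 CPM, DESeq2 1.42.0, the study's threshold, omission of each library, fresh libraries only, the left-out library kept, only the groups compared, and a replicate block.

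Members with a group mean of 1 CPM or more are described by library or range in the groups compared, the others by range or count, and fold changes are given only for called genes. Genes from the lists were named up to 4 per list in order of p, receptors freely. The rule for members uses symbols only, but this gene family and the lists were chosen with earlier results of these data known. Protein features were not analysed here, and a few genes of the lists are not reported here. Promoters were RefSeq sequences on GRCm38.p6.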

Additional observations from a re-analysis of the deposited data

Results flagged for a closer look

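One library stood far from the others of its group. Cxcl10 was at 37.3 CPM in the D30 CSF library, and the gap to the nearest D30 library was 0.94 of the group's range, above Dixon's 95% critical value for 4 samples. This was the only such value in 26 checks of ligand genes in groups of 4, where chance alone marks about 1 in 20.

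The culture effect, explant against age-matched testis, differed between stages in a test of the difference itself for 15 pairs of gene and stage. From D4 to D16 it changed by -2.42 for Cxcl14. It was more positive at D30 than at D4 for Ccl7 (6.12), Ccl8 (4.54), Ccl24 (4.23), Ccl12 (3.97), Ccl2 (3.21), Ccl3 (2.84), Cx3cl1 (2.13) and Cxcl12 (1.30), and more negative for Ccl17 (-3.24), Ccl5 (-3.11), Cxcl14 (-2.96), Ccl9 (-2.65), Ccl22 (-2.43) and Ccl6 (-2.31), all on the log2 scale. Of the latter, Ccl17 and Ccl22 were not called at D4 and were called lower at D30. For Ccl24 and Cxcl12 a positive difference means that the deficit in culture was smaller at D30 than at D4. Values for Ccl7, Ccl3 and Ccl24 rest on groups with at most 3 counts in all and are fitted values, not bounds. The call of Ccl9 was lost without 36.5 dpp replicate 1 (-0.84), as was that of Ccl6 (-1.77), and the calls of Ccl24 without D4 replicate 3 (3.59) and Cxcl12 without 36.5 dpp replicate 2 (1.24). Ccl9 was also lost without 10.5 dpp replicate 1 (-2.62), 10.5 dpp replicate 3 (-2.46) or D4 replicate 2 (-2.24). The call of Ccl22 was lost without each 10.5 dpp library, 36.5 dpp replicate 2, D4 replicate 1 or 2, D30 fresh replicate 3 or D30 CSF replicate 1, with values of -2.46 to -1.86. The call of Ccl3 was lost without 10.5 dpp replicate 1 or 2, 36.5 dpp replicate 1, D4 replicate 1 or 2, D30 fresh replicate 1 or D30 CSF replicate 1, with values of 1.98 to 2.88. Ccl7 was 5.26 without 36.5 dpp replicate 1 and 9.19 without replicate 2, and Cxcl14 was -2.31 without 36.5 dpp replicate 1.

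The library labelled 6.5 dpp fresh replicate 1 was in no comparison. Among 19 ligand genes of at least 1 CPM in a group, 15 lay above the range of the other 6.5 dpp libraries in it and 4 below. Ccl9 was at 3.22 CPM, Ccl6 at 2.68, Cxcl14 at 4.23 and Ccl27a at 10.0, all above that range. Cxcl12 (12.3 CPM), Cx3cl1 (7.29), Ccl17 (0.137) and Ccl24 (0.0853) lay below it.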

How the results depend on the processing

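Of 44 calls of ligand genes in culture against age-matched testis, 29 were kept in every refit and 15 were lost in at least 1. Over 636 refits 589 calls were kept, 47 were lost and 0 turned direction; over all comparisons 104 calls gave 1600 refits, 1430 kept and 0 turned. Of 201 recomputed counts, 171 stayed within 1.5 times. RLE size factors kept 44 of 44 culture calls, library size alone 42, no filter 43, DESeq2 43, fresh libraries only 44, a filter of 1 CPM 36 of 36 and a fit of only the groups compared 37 of 39. Keeping the library labelled 6.5 dpp fresh replicate 1 kept 33.

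At the study's threshold the count of called ligand genes was 5 in place of 14 for D4 against 10.5 dpp, 3 in place of 11 for D16 against 22.5 dpp, 11 in place of 19 for D30 against 36.5 dpp, 7 in place of 15 for D4 against 6.5 dpp, 2 in place of 6 for D16 against D4 and 0 in place of 1 for D30 against D16. In vivo it was 3 in place of 10 for 22.5 against 10.5 dpp and 2 in place of 13 for 36.5 against 22.5 dpp, and for the change of the culture effect 0 in place of 1 (D16) and 2 in place of 14 (D30). Fewer calls follow from the stricter rule itself. With 6.5 dpp fresh replicate 1 kept, counts were 8 (D4 against 10.5 dpp), 9 (D4 against 6.5 dpp), 2 (D16 against D4), 6 (36.5 against 22.5 dpp), 0 and 7 (culture effect at D16 and D30). A fit of only the groups compared gave 0 for D30 against D16 and 6 for the culture effect at D16, where DESeq2 gave 2 and fresh libraries 3. DESeq2 gave 2 for 10.5 against 6.5 dpp, and the filter of 1 CPM 6 for 22.5 against 10.5 dpp, with fewer genes tested. The other causes were not tested. No alternative gave a call for freezing.

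Leaving out 1 library gave counts of 10 to 13 (D4 against 10.5 dpp), 8 to 12 (D16 against 22.5 dpp), 16 to 20 (D30 against 36.5 dpp), 13 to 15 (D4 against 6.5 dpp), 2 to 6 (D16 against D4), 0 to 1 (D30 against D16), 0 to 1 (10.5 against 6.5 dpp), 9 to 12 (22.5 against 10.5 dpp), 6 to 14 (36.5 against 22.5 dpp), 0 to 2 (culture effect at D16) and 11 to 14 (at D30). With 2 libraries at 36.5 dpp and D16, an omission there leaves 1, assumed to vary like the other groups.

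Replicates share numbers but no stated animal or batch, and deviations of same-numbered libraries correlated from -0.522 to 0.661. A replicate block gave 14, 11 and 19 calls for D4, D16 and D30 against the age-matched testis, as without it. It lost Ccl3 for D16 against D4 and for the culture effect at D30.

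Depth limits the 20 ligand genes under 1 CPM, for which 1 count is a large part of the value. Culture and dissection of explants cannot be told apart, and comparisons with 36.5 dpp and D16 rest on 2 libraries in that group.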

Other observations

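Ligands that carry other symbols were outside the rule. Pf4, or CXCL4, which platelets and macrophages make, stood at 6.53, 10.6 and 8.26 CPM at 10.5 dpp and at 0.255, 0.791 and 0.768 at D4, a log2 fold change of -3.71 ± 0.54 by edgeR (adjusted p 0.000222). It was not called at D16 (adjusted p 0.0597) or D30 (adjusted p 0.818). Rarres2, or chemerin, was called at D30 alone among the 3 stages, with 2.87 ± 0.88 (adjusted p 0.00778). Of the 3 genes on that list, 2 were tested. At D4 0 were higher and 1 lower, none was called at D16, and 1 was higher at D30. The shares of all genes called at these stages were 8.1%, 25.8% and 67.4%.

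Atypical receptors, which bind chemokines without G protein signalling, were all tested. Of 6, 1 was lower at D4, 2 were higher and 1 lower at D16, and 1 was higher and 1 lower at D30. Among all genes, 8.1%, 25.8% and 67.4% were called in either direction. Ackr1, known from venules and red cells, had a log2 fold change of -1.94 ± 0.54 at D4 (adjusted p 0.0306) and 3.19 ± 1.00 at D16 (adjusted p 0.0272). Among signalling receptors, Ccr6 fell by 4.70 ± 0.66 at D30 (adjusted p 1.05e-05) and Xcr1, a receptor of cross-presenting dendritic cells, rose by 2.37 ± 0.41 (adjusted p 8.68e-05), while the known ligands of both, Ccl20 and Xcl1, were at or under 10 counts in every library.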
